A study of Homo sapiens with 6 samples.

Results

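The transcription factor NRF2 (gene NFE2L2), its inhibitor KEAP1 and 8 antioxidant target genes of NRF2 were examined in NCI-H460 cells with and without knockdown of PRMT5. The 10 genes were selected by name for this pathway and make up 10 of 58825 genes in the data. All 10 were among the 20295 genes with enough counts to be tested. NRF2 is a transcription factor that binds antioxidant response elements together with a small MAF protein. KEAP1 is the adaptor of a ubiquitin ligase that marks NRF2 for degradation, and reactive electrophiles or loss of KEAP1 function let NRF2 accumulate. Its targets reduce quinones and aldehydes, make glutathione and keep thioredoxin and peroxiredoxins reduced, and the pathway is often mutated in lung cancer.

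NCI-H460 is a human lung cancer line, known as a large cell carcinoma line with a mutant KEAP1 gene. The mutation itself was not analysed here, and there was no line with normal KEAP1 for comparison. The cells were infected with lentivirus carrying a control shRNA (NC-shRNA, 3 libraries, titled GFPkd) or an shRNA against PRMT5 (PRMT5-shRNA, 3 libraries), as stable knockdown cells in RPMI-1640 medium. The study calls the former a control shRNA and does not name GFP as its target. Several PRMT5 hairpins were designed, and the labels do not say which was sequenced. PRMT5 is an arginine methyltransferase that places symmetric dimethyl marks on histones and other proteins. Total estimated counts were 69606034, 70518401 and 62125927 in NC-shRNA replicates 1 to 3 and 53531257, 69077084 and 56507279 in PRMT5-shRNA replicates 1 to 3. The study calls the libraries of a group biological replicates, and all p-values measure the spread between these libraries of 1 cell line.

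PRMT5 (ENSG00000100462) checked the labels. Its level in CPM (counts scaled to library size by TMM) was 143, 127 and 128 in NC-shRNA and 45.8, 45.6 and 38.3 in PRMT5-shRNA. The groups did not overlap, and PRMT5 fell to 32.6% of the NC-shRNA mean, or -1.62 as log2 fold change (standard error 0.094), with an edgeR adjusted p of 0.0063. It did not pass when each gene was fitted alone, without sharing variance between genes (-1.49, adjusted p = 0.0913).

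The labels describe the line as a lung adenocarcinoma line. Of 10 epithelial markers, 7 had a mean FPKM (a level scaled for transcript length and library size) over 1, led by KRT18 at 151 in NC-shRNA and 135 in PRMT5-shRNA, and KRT8 at 110.0 and 98.0. The markers under 1 FPKM were EPCAM, CDH1 and ESRP1, at 0.50, 0.14 and 0.037 in NC-shRNA. The epithelial sum was 396, 378 and 369 FPKM in NC-shRNA and 355, 356 and 344 in PRMT5-shRNA, so every PRMT5-shRNA library was lower. Of all tested single genes, 10.7% had every PRMT5-shRNA library below every NC-shRNA library in CPM, and 11.0% had every one above. At 50 to 200 FPKM in NC-shRNA, the range of KRT18 and KRT8, 42.2% of tested genes had every PRMT5-shRNA library below. Of 9 lung adenocarcinoma markers, 0 exceeded a mean of 1 FPKM over the libraries. SFTPA1, SFTPA2, SFTPD and SCGB1A1 were at 0 in every library, NKX2-1 averaged 0.033 FPKM in NC-shRNA, and LAMP3 was the most abundant at 0.84. The defining markers of the labelled type were thus at or near 0. The adenocarcinoma marker sum was 0.82, 0.93 and 1.01 FPKM in NC-shRNA and 1.04, 1.15 and 1.31 in PRMT5-shRNA, so every PRMT5-shRNA library was higher. LAMP3 made up most of this sum. Its own groups overlapped, at 0.72, 0.91 and 0.88 FPKM in NC-shRNA and 0.86, 1.12 and 1.08 in PRMT5-shRNA. Markers of other cell types were summed in the same way. The fibroblast sum, led by DCN, ranged from 10.4 to 12.8 FPKM. The blood cell sum, led by HBA1, was 3.21, 3.41 and 2.99 FPKM in NC-shRNA and 2.61, 2.63 and 2.76 in PRMT5-shRNA, so every PRMT5-shRNA library was lower. The endothelial sum ranged from 14.3 to 15.9 FPKM and came mostly from ESAM, at 14.0 in NC-shRNA. VWF, an endothelial gene, was at 0 counts in each NC-shRNA library and at 128, 105 and 122 counts in PRMT5-shRNA (edgeR adjusted p = 0.034), a mean of 0.17 FPKM. VWF did not pass with counts divided by 4 (edgeR adjusted p = 0.0689), in limma without a filter (adjusted p = 0.157), or in 5 of 6 edgeR fits with a library left out (adjusted p 0.0662 to 0.124). Whether these markers play a part in the results was not tested.

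Antioxidant enzymes were among the most abundant transcripts of control cells. NQO1, a quinone reductase, had 127, 167 and 116 FPKM in NC-shRNA replicates 1 to 3, a mean of 137 ± 27.1 (SD, n = 3) that ranked 206 of 29264 genes with FPKM over 0. SRXN1, the sulfiredoxin that repairs over-oxidised peroxiredoxins, had 129, 118 and 114 FPKM (mean 120.1, rank 244). TXNRD1, the cytosolic thioredoxin reductase, had 97.5, 149 and 103 FPKM (mean 116, rank 252). Within libraries, NQO1 was above TXNRD1 in all 3, while SRXN1 was above NQO1 in replicate 1 and below TXNRD1 in replicate 2.

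The aldo-keto reductases, which reduce aldehydes and ketones with NADPH, followed. AKR1B10 had 115, 99.1 and 107 FPKM (rank 286), above TXNRD1 in replicates 1 and 3 and below it in replicate 2. AKR1C1 had 79.5, 71.4 and 77.2 FPKM (rank 421) and AKR1C2 55.5, 58.1 and 49.5 FPKM (rank 605), and neither overlapped the gene next to it in the order.

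The regulators and the subunits of glutamate-cysteine ligase, the first enzyme of glutathione synthesis, had lower levels in control cells. NFE2L2 had 16.5, 18.6 and 19.9 FPKM (rank 2017), in each library above GCLM, the modifier subunit of the ligase, at 15.7, 16.9 and 16.6 FPKM (rank 2284). KEAP1 had 10.4, 9.72 and 10.2 FPKM (rank 3549), and GCLC, the catalytic subunit, had 8.84, 8.83 and 8.33 FPKM (rank 4132). KEAP1 libraries lay below those of GCLM and above those of GCLC. Among the 10 genes the spread between NC-shRNA libraries was widest for TXNRD1, with a coefficient of variation of 24.4%, and NQO1, with 19.8%.

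**Figure D1:**
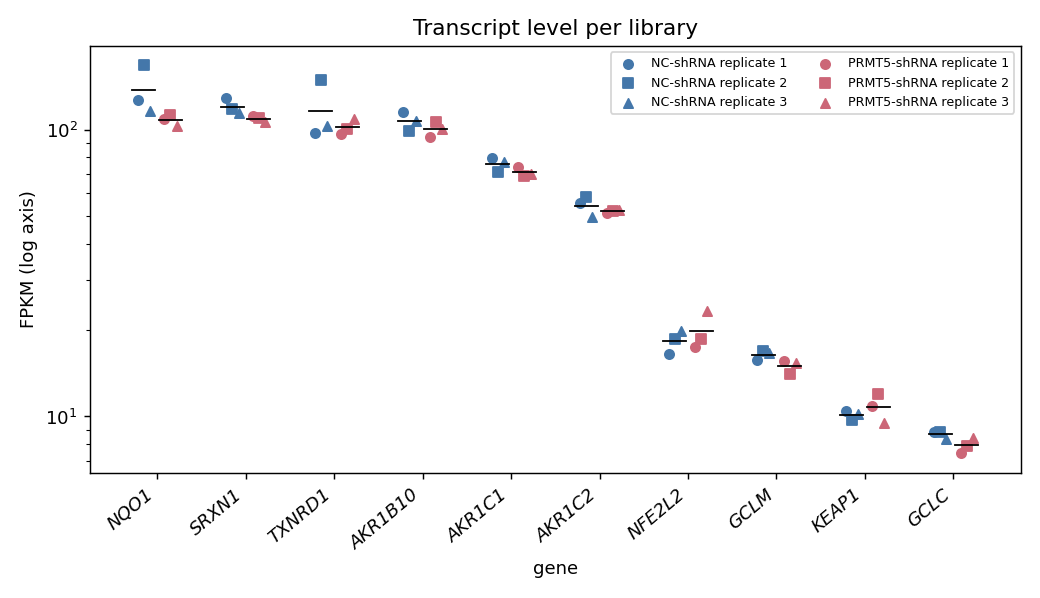
FPKM of each gene (log axis) in the 3 NC-shRNA and the 3 PRMT5-shRNA libraries, with black lines at the group means, ordered by the NC-shRNA mean. NQO1 to AKR1C2 lie above NFE2L2, GCLM, KEAP1 and GCLC in both groups, and NC-shRNA replicate 2 stands above the other libraries for NQO1 and TXNRD1.

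The antioxidant response element was searched for by its core TGACNNNGC on both strands in RefSeq promoter windows (GRCh38.p14), each from 250 bases before to 50 bases after an annotated start. Of the 10 genes, 9 matched the table with 12 windows, and AKR1B10 had no entry. The core occurred in 4 of the 12 windows, in KEAP1, GCLM and TXNRD1, against 13.3% of all 35116 windows. Among other known targets of NRF2, 12 of 46 windows held it (26.1%). A match is a description of letters and not a measured binding site, and the absence of a match covers this window only. The GCLM window and 1 of the 2 TXNRD1 windows are shown, from 250 bases before the start to the start base, since they hold the core beside the most upstream start that the table has for a target gene. Capitals mark the core or its reverse complement. GCLM lies on the minus strand (chr1:93909430-93909680), with TGACTAAGC on the opposite strand to the gene, 34 bases before the start. TXNRD1 lies on the plus strand (chr12:104215529-104215779), with TGACTTCGC on the same strand, 99 bases before the start, and TGACGGAGC on the opposite strand, reaching the start base. The other TXNRD1 window, at a later start, held TGACAAAGC on the opposite strand, 102 bases before that start, and is not printed.
GCLM: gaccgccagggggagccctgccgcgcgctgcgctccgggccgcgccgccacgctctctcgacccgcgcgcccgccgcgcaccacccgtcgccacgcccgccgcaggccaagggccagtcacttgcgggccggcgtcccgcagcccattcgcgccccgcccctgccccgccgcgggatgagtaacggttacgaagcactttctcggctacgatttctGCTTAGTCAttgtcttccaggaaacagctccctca
TXNRD1: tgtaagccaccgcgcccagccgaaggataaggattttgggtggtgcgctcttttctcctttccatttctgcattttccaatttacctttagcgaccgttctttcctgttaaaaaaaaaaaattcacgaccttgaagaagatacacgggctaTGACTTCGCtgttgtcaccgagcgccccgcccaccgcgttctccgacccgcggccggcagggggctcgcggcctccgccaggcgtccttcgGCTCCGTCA

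The AKR1C1 and AKR1C2 windows held no core. They were alike in sequence: aligned without gaps, 264 of 296 bases were equal, with 245 of them in an unbroken run. In annotated transcripts, 28.3% of the 50-base stretches of AKR1C1 occurred in AKR1C2 and 38.1% of those of AKR1C2 in AKR1C1. Reads of these paralogs could thus be divided between them, and their separate values are uncertain.

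In the comparison of PRMT5-shRNA with NC-shRNA cells, 0 of the 10 genes passed an edgeR adjusted p of 0.05, a call that 0.0690% of all tested genes reached. DESeq2 also called 0 of the 10, against 3.17% of the genes it gave an adjusted p, and limma on log2(FPKM + 1) called 0 of the 10, against 0.102%. At an unadjusted p under 0.05, 5 of the 10 were lower (NQO1, AKR1C1, GCLC, GCLM and SRXN1) and 0 higher, against 6.29% of all tested genes lower and 6.54% higher. The lower share rose with expression level, in a comparison added after the values were seen. At 50 to 200 FPKM in NC-shRNA, 3 of 6 of these genes were lower, against 32.8% of all tested genes. At 5 to 20 FPKM it was 2 of 4, against 9.67%. The count of 5 depended on the test. At an unadjusted p under 0.05, DESeq2 had 4 of the 10 lower, limma on log2(FPKM + 1) 1 (SRXN1), the linear model per gene 0, limma after cyclic loess scaling (added after the values were seen) 2, and edgeR with a library left out 1 to 5. In these 5, the CPM of the groups did not overlap, with every PRMT5-shRNA library below every NC-shRNA library, as in 10.7% of all tested genes, and 0 of the 10 were separated upwards, against 11.0%. On the FPKM scale, 3 of the 5 did not overlap (NQO1, GCLM and SRXN1). All 8 targets, and neither regulator, had a log2 fold change below 0, against 48.8% of tested genes. Of tested genes at 50 to 200 FPKM, where 6 of the targets lay, 83.9% were below 0, and at 5 to 20 FPKM 59.0%. RNA was measured in bulk, so fewer cells of a type and less RNA per cell cannot be told apart.

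The regulators did not differ beyond the spread of the libraries. NFE2L2 (ENSG00000116044, chromosome 2, 177227595 to 177392697, GRCh38) had 115, 126 and 132 CPM in NC-shRNA and 114, 122 and 151 in PRMT5-shRNA. The groups overlapped and PRMT5-shRNA replicate 3 was the highest. The log2 fold change was 0.05 (95% confidence interval -0.22 to 0.33, edgeR adjusted p = 0.88), and without that library it was -0.08. KEAP1 (ENSG00000079999, chromosome 19, 10486120 to 10503741) had 45.6, 41.4 and 42.7 CPM in NC-shRNA and 44.6, 49.4 and 38.6 in PRMT5-shRNA. The PRMT5-shRNA libraries spanned the whole NC-shRNA range. Its log2 fold change was 0.03 (interval -0.21 to 0.28, adjusted p = 0.93), and without PRMT5-shRNA replicate 2 it was -0.06. These intervals cover changes of either sign, so the signs of both regulators are not settled.

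NQO1 had the point estimate farthest from 0 among the 10. NQO1 (ENSG00000181019, chromosome 16, 69706996 to 69726951) had 461, 593 and 402 CPM in NC-shRNA and 369.9, 386 and 348 in PRMT5-shRNA. The groups did not overlap, and NC-shRNA replicate 2 was well above its groupmates. The log2 fold change was -0.40 (standard error 0.14, interval -0.72 to -0.07, edgeR adjusted p = 0.31), and without NC-shRNA replicate 2 it was -0.23.

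TXNRD1 showed the same library more plainly. TXNRD1 (ENSG00000198431, chromosome 12, 104215779 to 104350305) had 799, 1192 and 805 CPM in NC-shRNA and 743, 780.1 and 833 in PRMT5-shRNA. Apart from NC-shRNA replicate 2, at 1.49 times the mean of the other NC-shRNA libraries, the groups overlapped. The log2 fold change was -0.25 (interval -0.62 to 0.13, edgeR adjusted p = 0.56) with all libraries and -0.03 without that library. NC-shRNA replicate 2 was high in NQO1 by 1.37 times, but lay between 0.89 and 1.10 times its groupmates in the other 8 genes. Over 9963 well expressed genes it differed by more than 1.3-fold from its groupmates in 844, fewer than any other library (up to 1104). The pseudogene RPL18AP3, listed at a mean of 96.0 FPKM, lies inside TXNRD1 on the same strand. Of the 50-base stretches in annotated transcripts of TXNRD1, 0% occurred in another gene.

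**Figure D2:**
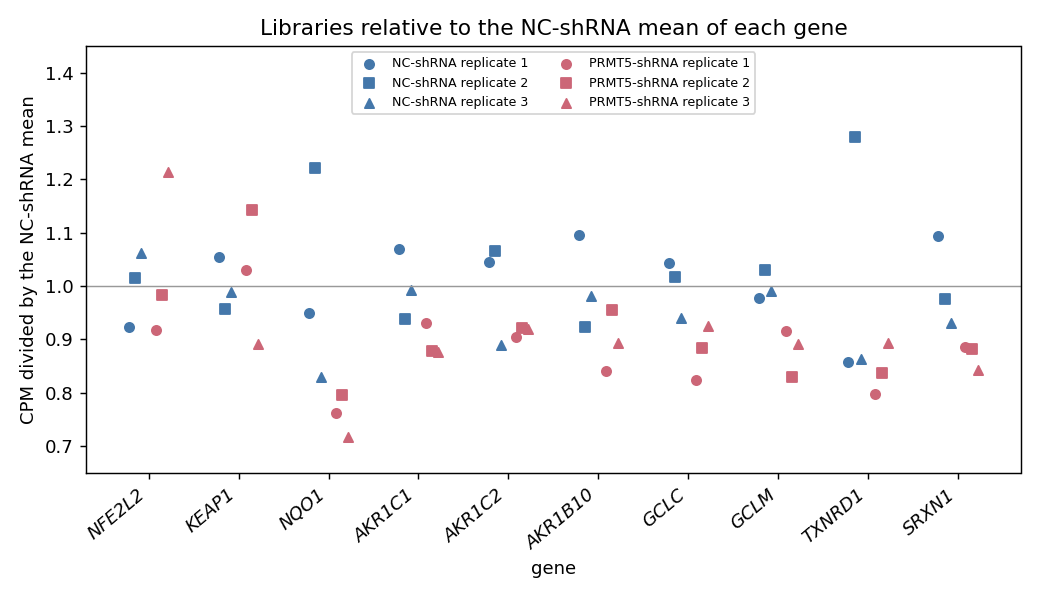
CPM of each library divided by the NC-shRNA mean of the gene, for the 10 genes, with blue marks for NC-shRNA and red marks for PRMT5-shRNA libraries and the shape giving the replicate. NQO1, AKR1C1, GCLC, GCLM and SRXN1 have all PRMT5-shRNA libraries under all NC-shRNA libraries, and replicate 2 of NC-shRNA is high for NQO1 and TXNRD1.

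Both subunits of glutamate-cysteine ligase had log2 fold changes below 0. GCLM (ENSG00000023909, chromosome 1, 93885205 to 93909456) had 104, 109 and 105 CPM in NC-shRNA and 97.1, 88.0 and 94.6 in PRMT5-shRNA. The groups did not overlap, but on the FPKM scale the closest libraries lay at 15.67 and 15.65. The log2 fold change was -0.19 (interval -0.33 to -0.04, edgeR adjusted p = 0.31). GCLC (ENSG00000001084, chromosome 6, 53497341 to 53616970) had 93.3, 91.0 and 84.2 CPM in NC-shRNA and 73.7, 79.1 and 82.9 in PRMT5-shRNA, and its log2 fold change was -0.19 as well (interval -0.36 to -0.02, adjusted p = 0.35). Both subunits of the ligase thus had point estimates of about the same size, and neither passed the test. Glutathione synthetase, GSS, which catalyses the next step and was named here after the values were seen, had 0.02, and its groups overlapped.

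SRXN1 (ENSG00000271303, chromosome 20, 646615 to 653370) had 423, 378 and 360.5 CPM in NC-shRNA and 343, 342 and 326 in PRMT5-shRNA. The groups did not overlap, and the log2 fold change was -0.20 (interval -0.37 to -0.03, edgeR adjusted p = 0.32). Without NC-shRNA replicate 1 it was -0.13. Of its 50-base stretches, 84.7% also occurred in AL121758.1, an annotated gene that overlaps SRXN1 on the same strand and had a mean of 0.14 FPKM.

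Of the aldo-keto reductases, AKR1C1 was separated between the groups and AKR1C2 and AKR1B10 were not. AKR1C1 (ENSG00000187134, chromosome 10, 4963253 to 4983283) had 851, 746 and 789.9 CPM in NC-shRNA and 740.3, 699 and 697 in PRMT5-shRNA, and differed by -0.16 on the log2 scale (interval -0.31 to -0.01, edgeR adjusted p = 0.36). AKR1C2 (ENSG00000151632, chromosome 10, 4987400 to 5018031) had 438, 447 and 373 CPM against 379, 387 and 386, and its groups overlapped (-0.13, interval -0.31 to 0.05). Without NC-shRNA replicate 2 it was -0.08, and without NC-shRNA replicate 3 it was -0.21. With the counts of these paralogs summed, which avoids the question of how their shared reads were divided, the log2 fold change was -0.15 (interval -0.28 to -0.02, edgeR adjusted p = 0.34). AKR1B10 (ENSG00000198074, chromosome 7, 134527592 to 134541408) had 248.6, 209.5 and 222 CPM against 191, 216 and 203, and its groups overlapped as well (-0.16, interval -0.35 to 0.04). Without NC-shRNA replicate 1 it was -0.09.

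**Figure D3:**
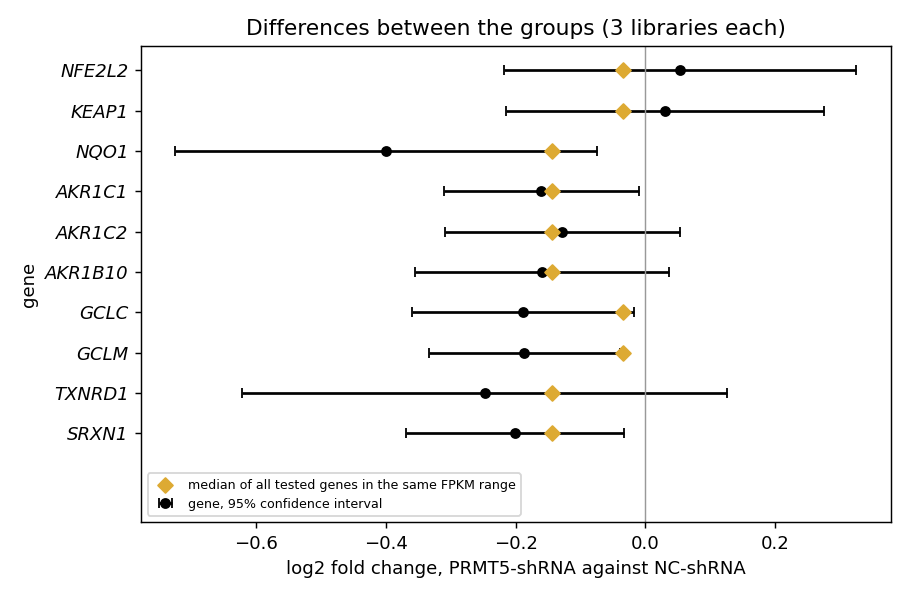
Log2 fold change of each gene in PRMT5-shRNA against NC-shRNA (black, bars give the 95% confidence interval, 3 libraries a group) and the median of all tested genes in the same FPKM range (yellow diamonds). The point estimates run from -0.40 for NQO1 to 0.05 for NFE2L2, and the medians are -0.14 at 50 to 200 FPKM and -0.03 at 5 to 20 FPKM.

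Highly expressed genes as a whole leaned the same way. This comparison by level was added after the values were seen. Of 528 tested genes with an NC-shRNA mean of 50 to 200 FPKM, 83.9% had a log2 fold change below 0, with a median of -0.14, and 42.2% were separated downwards. The 6 targets in this range were all below 0, and 3 of the 6 were separated downwards. NQO1 differed most from this median, by -0.256, while AKR1C1, AKR1B10 and AKR1C2 differed from it by -0.017, -0.015 and 0.016. Without NC-shRNA replicate 2, NQO1 had -0.23, close to SRXN1 (-0.22), AKR1B10 (-0.21) and AKR1C1 (-0.21). In that fit AKR1C2 had -0.08 and TXNRD1 -0.03. At 5 to 20 FPKM the median of 4437 genes was -0.03, with 59.0% below 0 and 15.8% separated downwards. GCLC and GCLM, at -0.19 each, were separated downwards in this range and NFE2L2 and KEAP1 were not. The level was the NC-shRNA mean, which also enters the fold change, so level and fold change are not independent. The share of genes below 0 grew with the level, from 40.1% under 1 FPKM to 91.3% at 200 FPKM or more. In genes at 5 FPKM or more it also went with transcript length, with a median of -0.18 for longest transcripts under 1000 bases and 0.05 at 8000 bases or more. A scaling that follows the level (cyclic loess on log2 CPM), also added after the values were seen, gave -0.31 for NQO1, -0.13 for SRXN1 and TXNRD1 each, -0.16 for GCLC and GCLM each, and -0.10 to -0.05 for the aldo-keto reductases, and it left 0 of the 10 past an adjusted p of 0.05. After it, the median of all genes at 50 to 200 FPKM was still -0.076, with 72.7% below 0, and the aldo-keto reductases lay around this median. What produced the lean was not tested.

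**Figure D4:**
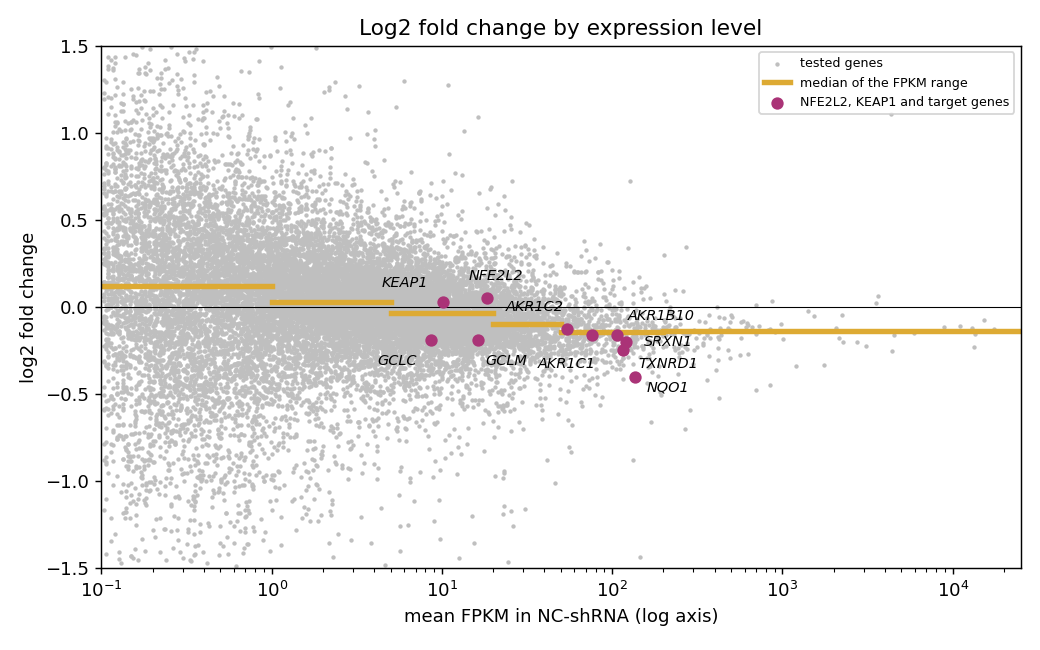
Log2 fold change of tested genes (grey) against their mean FPKM in NC-shRNA (log axis), with the median of each FPKM range (yellow lines) and the 10 genes in purple. The median moves from 0.12 under 1 FPKM to -0.14 at 50 FPKM and above, and the purple points of the targets lie near or under these lines. Genes at or under 0.1 FPKM or with a log2 fold change beyond -1.5 or 1.5 are not drawn (2037 genes).

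The summed FPKM of the 10 genes took 0.197%, 0.219% and 0.193% of all FPKM in NC-shRNA and 0.186%, 0.185% and 0.183% in PRMT5-shRNA. The libraries of the groups did not overlap. Of the 10 genes, 6 had 50 to 200 FPKM in NC-shRNA. Of all tested genes in that range, 83.9% had a log2 fold change below 0 and 42.2% were separated downwards in CPM. Whether the summed share differed from that of other genes at this level was not tested. NC-shRNA replicate 2, with its high NQO1 and TXNRD1, had the largest share.

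Other genes of the pathway gave 0 calls at an adjusted p of 0.05 in each of the lists that follow, by edgeR. The lists share genes, so FTL, GSR, GSTP1, PRDX1, SLC7A11 and TXN, with an unadjusted p under 0.05, are counted among the other NRF2 target genes and again in another list. Across all tested genes the median log2 fold change was 0.0075, and 1328 genes were higher (6.54%) and 1277 lower (6.29%) at an unadjusted p under 0.05. Of 25 partners and regulators of NRF2 and KEAP1, 1 was higher and 0 lower at an unadjusted p under 0.05, with a median of 0.03. The higher gene was MAFK, a small MAF partner of NRF2, at 18.5, 21.2 and 18.8 FPKM in NC-shRNA and 23.7, 24.9 and 25.6 in PRMT5-shRNA. Its groups did not overlap, and its log2 fold change was 0.28 (interval 0.11 to 0.45, edgeR adjusted p = 0.23). SQSTM1, the autophagy receptor that binds KEAP1, was the most abundant of the list at 63.5 and 61.9 FPKM (-0.10), and CUL1, a ligase scaffold, came next at 36.2 and 35.5 FPKM (-0.09).

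Of 40 tested other NRF2 target genes, 5 were higher and 8 lower at an unadjusted p under 0.05, and 29 were below 0, with a median of -0.10. The lower genes FTL, GSR, GSTP1, PRDX1 and TXN had over 50 FPKM in NC-shRNA. Of all tested genes, 32.8% at 50 to 200 FPKM and 35.4% at 200 FPKM or more were lower at this threshold. In these ranges, 83.9% and 91.3% of all tested genes were below 0. The other lower genes, UGDH and ABCC1 among them, had 20 to 50 FPKM. Of all tested genes in that range, 21.7% were lower at this threshold and 73.3% were below 0. The ferritin light chain FTL was the most abundant, at 1747 FPKM in NC-shRNA and 1445 in PRMT5-shRNA, and its log2 fold change was -0.34 at an edgeR adjusted p of 0.20. The heavy chain FTH1 had 867 and 926 FPKM (0.04), and the difference between the ferritin subunits was not tested. UGDH, which makes UDP-glucuronate, had -0.32, while the efflux pumps ABCC3 and ABCC2 had 0.26 and 0.16. The efflux pumps of the list went both ways: ABCC1 had -0.22, with its groups separated, and ABCG2 and ABCC5 had -0.11 and -0.03, all named after the values were seen.

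Of 31 tested glutathione genes other than GCLC and GCLM, 3 were higher and 3 lower at an unadjusted p under 0.05, with a median of -0.03. GSR, the reductase that regenerates glutathione, had 64.0, 62.0 and 69.5 FPKM in NC-shRNA and 38.3, 42.6 and 58.8 in PRMT5-shRNA. The groups did not overlap, although PRMT5-shRNA replicate 3 was close to NC-shRNA. Its log2 fold change was -0.55 (interval -0.90 to -0.19, edgeR adjusted p = 0.25), farther from 0 than that of any of the 10 genes. CHAC1, which breaks down glutathione, had 4.84, 5.98 and 6.83 FPKM against 9.59, 9.06 and 8.82, a log2 fold change of 0.58 (interval 0.28 to 0.89, adjusted p = 0.20). GSTP1, a glutathione transferase, had -0.27, and GGT7, of the gamma-glutamyltransferase family, had 0.48.

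In the thioredoxin system, 19 genes were tested besides TXNRD1 and SRXN1, of which 2 were higher and 5 lower at an unadjusted p under 0.05. The median was -0.16, and 14 were below 0. The 5 lower genes all had over 50 FPKM in NC-shRNA, where many genes were lower: of all tested genes, 32.8% at 50 to 200 FPKM and 35.4% at 200 FPKM or more were lower at an unadjusted p under 0.05, with a median of -0.14 in each range. The peroxiredoxins PRDX1 (631 and 546 FPKM, -0.27), PRDX6 (-0.26) and PRDX3 (-0.19), which reduce peroxides, and thioredoxin itself, TXN (341 and 308 FPKM, -0.21), were on the lower side. TXNIP, an inhibitor of thioredoxin, was on the other side, at 16.4, 16.9 and 17.6 FPKM in NC-shRNA and 23.5, 25.2 and 23.2 in PRMT5-shRNA. Its groups did not overlap, and its log2 fold change of 0.44 (interval 0.29 to 0.58) had an edgeR adjusted p of 0.10. SESN2, a stress-induced sestrin, had 8.49, 9.93 and 9.97 FPKM against 14.4, 13.9 and 13.6, a log2 fold change of 0.50 (interval 0.32 to 0.69, adjusted p = 0.11). Neither passed the threshold.

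The counts of the remaining lists stand beside shares over all tested genes of 6.54% higher and 6.29% lower at an unadjusted p under 0.05. Of 18 tested genes of NADPH supply, 1 was higher and 0 lower at an unadjusted p under 0.05, with a median of -0.05. The higher gene was MTHFD2, a mitochondrial folate enzyme (0.21), and PGD, an enzyme of the pentose phosphate pathway, had 156 FPKM in NC-shRNA (-0.12). Of 15 haem and iron genes, 1 was higher (SLC48A1, a haem transporter, 0.27) and 1 lower (FTL), with a median of -0.14. Of 12 superoxide and peroxide enzymes, 0 were higher and 1 lower (PARK7, -0.25), with a median of -0.16, and SOD1, the most abundant, had -0.15. Of 8 aldo-keto reductases other than the AKR genes already described, 0 were higher or lower, with a median of 0.06, and AKR1C3, the most abundant of them, had 81.3 and 78.4 FPKM (-0.12).

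**Figure D5:**
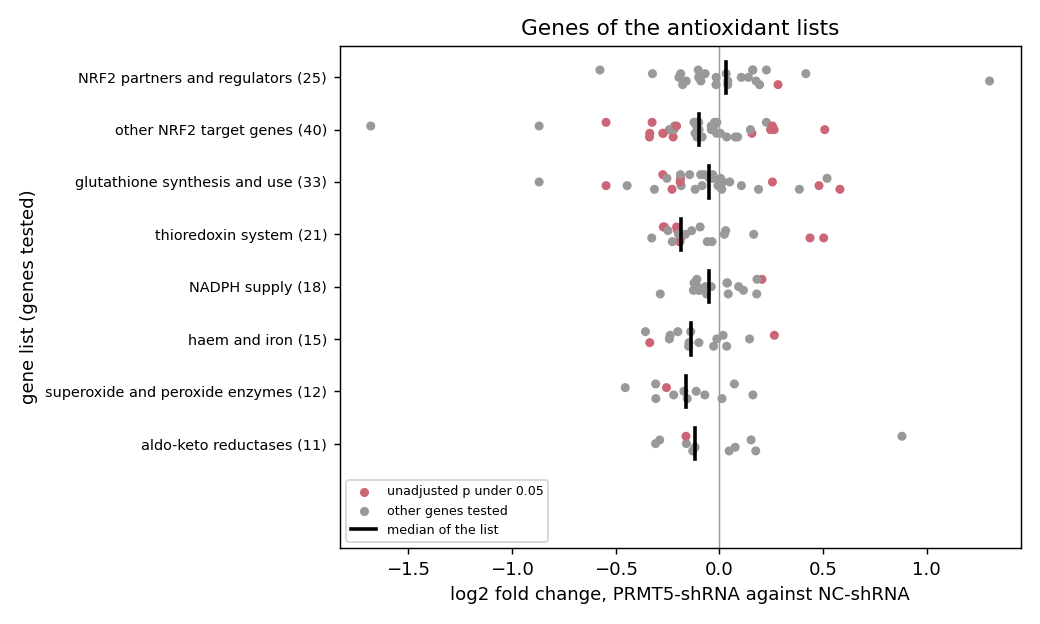
Log2 fold change of each tested gene in 8 lists of the pathway (points, red where the unadjusted p is under 0.05), with the median of each list as a black line and the number of genes tested in parentheses. The medians run from -0.19 for the thioredoxin system, here with TXNRD1 and SRXN1, to 0.03 for the partners and regulators.

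Genes with the most similar pattern over the 6 libraries were sought for a regulator and a target. For NFE2L2, among 4416 genes that varied at least as much, TOGARAM1, FNIP1 and ZNF597 were closest, with root mean square differences of 0.041, 0.044 and 0.046 in centred log2 CPM. For NQO1, among 1482 such genes, RPL39, SFT2D1 and ABCA4 were closest (0.095, 0.10 and 0.12). RPL39 had 406, 635 and 372 CPM in NC-shRNA and 365, 357 and 353 in PRMT5-shRNA, with the same high NC-shRNA replicate 2 as NQO1.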

How the data were processed

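RNA-seq of NCI-H460 cells gave 6 libraries, grouped by their labels. The authors' processing notes name cutadapt 1.9, HISAT2 2.0.4, StringTie 1.3.4d and GRCh38. For each gene the authors deposited an estimated count, which held whole numbers, was not normalized and was tested as it stands. They also deposited FPKM, scaled for transcript length and library size. Of 58825 gene IDs, 58552 were found in GENCODE release 29, the source of positions. Low counts gathered at 4, with between 1214 and 1319 genes at exactly 4 counts a library. At 3 counts there were 462 to 546 genes, and at 5 counts 283 to 308. How a count relates to a sequenced fragment is not known, so counting intervals were not given. A stranded kit is named for the libraries, while the strand setting of the counting is not given in the sources used here. NFE2L2 overlaps AGPS on the other strand.

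Counts were scaled by TMM, filtered with filterByExpr and tested across all genes with the quasi-likelihood test of edgeR 4.0.16 (R 4.3.3) with Benjamini-Hochberg adjustment. Standard errors came from the F statistic. Levels between genes were compared in FPKM. Alternatives used RLE size factors, no filter, DESeq2 1.42.0, counts divided by 4, limma 3.58.1 or a linear model per gene on log2 FPKM (pseudocount 1 or 0.1, minimum mean FPKM 0.5), a replicate block, and leaving out the libraries in turn. Loess and quantile scaling were added after the values were seen. The tests were tried on simulated data beforehand. No library was a duplicate of another (smallest chi-square per degree of freedom 42.2).

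The 10 genes and all lists were chosen with earlier results of these data known. Of each list, the text names genes with an adjusted p under 0.05, the 2 with the highest FPKM, and the 2 higher and 2 lower genes with the smallest unadjusted p under 0.05, and 1 gene that this rule takes is not reported here. Beside defining markers at 0 and genes that lists share, genes named beyond this rule are marked in the text as named after the values were seen. Most similar genes had a mean CPM of at least 10 and an SD of at least that of the gene matched. Tables and sequences were handled in Python 3.11.15 with pandas 2.3.3.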

Additional observations from a re-analysis of the deposited data

How the results depend on the processing

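The 8 targets were below 0 in every alternative run, and 0 of them passed an adjusted p of 0.05 in any. With limma on log2(FPKM + 1) they were nearer 0. NQO1 had -0.32, TXNRD1 -0.16, SRXN1 -0.14, and GCLC and GCLM -0.12 each. AKR1C1 and AKR1B10 had -0.10 each, and AKR1C2 -0.06. NQO1 ranged from -0.52 to -0.23 (lowest adjusted p 0.129) and TXNRD1 from -0.35 to -0.03, both nearest 0 without NC-shRNA replicate 2. With 1 library left out at a time, NFE2L2 ranged from -0.075 to 0.13 and KEAP1 from -0.058 to 0.12. NFE2L2 was below 0 without NC-shRNA replicate 1 (-0.0011) or PRMT5-shRNA replicate 3, and KEAP1 without NC-shRNA replicate 2 (-0.00058) or PRMT5-shRNA replicate 2. Across all genes, edgeR called 10 higher and 4 lower, and DESeq2 303 and 227. Without a filter, limma on log2(FPKM + 1) called 1 higher and 4 lower. The linear model per gene called 0 higher and 2 lower, with 2165 genes at an unadjusted p under 0.05. With a library left out, 4 to 16 genes were higher and 3 to 10 lower. With the replicate number as a block, edgeR called 0 higher and 0 lower, with 2382 genes at an unadjusted p under 0.05. Deviations of same-numbered libraries correlated at 0.035, -0.010 and -0.015, and 2 of 6 libraries matched best with their own number, so the numbers did not pair the libraries. VWF had an adjusted p of 0.366 under this block. PRMT5 had -1.62 under it (adjusted p = 0.144) and -1.49 in the linear model per gene (adjusted p = 0.0913). It ranged from -1.66 to -1.54 with a library left out. The cause of these differences was not tested. With 3 libraries a group, the intervals of the 10 genes are 0.29 to 0.75 wide on the log2 scale, and the exact permutation test of a single gene cannot go below 0.10.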

Other observations

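Of the marker lists of other cell types, some genes at low levels were separated between the groups without passing the test. COL3A1, a fibrillar collagen, had 0.89, 0.94 and 1.09 FPKM in NC-shRNA and 1.98, 1.61 and 1.99 in PRMT5-shRNA, 0.87 on the log2 scale (edgeR adjusted p = 0.11). PDGFRB, a growth factor receptor of mesenchymal cells, had a log2 fold change of 0.57 (adjusted p = 0.23), while DCN (-0.24) and LUM (0.20), the most abundant of the fibroblast list, overlapped between the groups. Of endothelial genes, CDH5 had 1.38 and 1.78 FPKM (0.30), and KDR was at 0 counts in each NC-shRNA library and at 12, 22 and 26 counts in PRMT5-shRNA. PECAM1 had 30, 5 and 8 counts in NC-shRNA and 104, 100 and 109 in PRMT5-shRNA (edgeR adjusted p = 0.19). Of 6 tested endothelial genes, 4 were higher and 1 lower at an unadjusted p under 0.05, against 6.54% and 6.29% of all tested genes. Their median of 1.65 takes in VWF and KDR, whose fold changes from 0 counts are fitted values. The summed level of the list did not separate the groups. The haemoglobin gene HBA1 had 1.74, 1.85 and 1.79 FPKM in NC-shRNA and 1.20, 0.76 and 1.21 in PRMT5-shRNA (-0.81, edgeR adjusted p = 0.28), and CD14, a monocyte gene, overlapped (0.55). The lower endothelial gene was ESAM (-0.23). Of the keratins, KRT8 (-0.23) was separated downwards, and KRT18 (-0.23), KRT7 (-0.02) and KRT19 (-0.05) overlapped between the groups. Of the other epithelial markers, CLDN4, a tight junction gene, had 2.67, 2.41 and 2.27 FPKM in NC-shRNA and 2.76, 0.03 and 0.33 in PRMT5-shRNA, where replicate 1 lay with NC-shRNA. EPCAM, at 0.50 FPKM in NC-shRNA, was separated downwards. CDH1 (0.45) and ESRP1 (0.96), at 0.14 and 0.037 FPKM in NC-shRNA, were above 0. CLDN7 (-0.06) and MUC1 (-0.15) were below 0. The groups of CDH1, ESRP1, CLDN7 and MUC1 overlapped. PECAM1, KRT7, KRT19, CLDN4, EPCAM, CDH1, ESRP1, CLDN7 and MUC1 were named after the values were seen.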
